A study of Mus musculus with 6 samples.

Results

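Growth-associated genes were described in isolated hippocampal cells of HuD-overexpressing mice. The labels call the cells DGCs, taken here to mean dentate granule cells, the main neurons of the dentate gyrus. The genes are Gap43, Marcks, Marcksl1, Basp1, the stathmin genes Stmn1, Stmn2, Stmn3 and Stmn4, and Nrn1. They were taken as all probe sets with exactly 1 gene symbol, that symbol being one of these 9 of 18193 named genes on the array, which gave 21 of 45037 probe sets. The transgenic group consisted of mice labelled transgenic, in a series titled for HuD overexpressors, and the control group of mice labelled control. Each group had 3 arrays from 2 mice: mouse 1 had 1 array and mouse 2 had 2. Strain, age, sex and the transgene's design are not in the labels, and from what is known of the line the transgene is driven by a forebrain neuron promoter (that of the alpha subunit of CaM kinase II). The array of transgenic mouse 1, 1 array of transgenic mouse 2 and the array of control mouse 1 carry re-LCM as a tag in their titles, and the labels leave that tag unexplained. Both arrays of control mouse 2 lack it and bear the titles control 1 and control 2, which may mean separate mice.

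These genes are known from growing axons. Gap43, Basp1, Marcks and Marcksl1 encode proteins on the inner face of the plasma membrane that bind calmodulin and acidic phospholipids, influence the actin skeleton, and are substrates of protein kinase C. Stathmins bind tubulin dimers and favour microtubule disassembly until they are phosphorylated, and Nrn1 encodes neuritin, an activity-induced neurite growth protein anchored at the cell surface. HuD, the product of Elavl4, binds AU-rich and U-rich stretches of mRNAs, and Gap43 is its best-known target, with Marcks and Nrn1 also described as targets. In the adult dentate gyrus, mature granule cells hold little Gap43, and young granule cells hold more of it.

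No growth-associated gene passed the test of transgenic against control mice, given the spread between mice. By its lead probe set, the one with the highest mean, 3 of the 9 genes were higher and 6 lower, with a median log2 difference of -0.05, against a median of 0.01 over all 11138 genes tested. The size of the lead differences was ordinary as well, with a median of 0.12 log2 units regardless of sign, against 0.14 over all genes. Over all 21 probe sets that median was 0.19, against 0.16 over all 22518 probe sets tested. Of the 21, 13 were lower (median -0.07), against 11392 of 22518 (median -0.0036). With limma on 2 mice per group, 0 of the 21 probe sets passed an adjusted p of 0.05 (adjusted p = 0.993 to 0.999), and the background is also 0% of 22518 probe sets tested. At an unadjusted p under 0.05 the count was 1 of 21 probe sets and 0 of the 9 lead probe sets, against 4.42% of all probe sets and 3.47% of all genes. All 21 passed the filter on dim probe sets, which asks for a mean log2 intensity above the median of all probe sets. Of the 21, 1 (Marcks 1430311_at) passed only through the control group and so had to be lower. An exact permutation test over 2 against 2 mice cannot give a two-sided p below 0.333. Intensities are linear and scaled alike on every array, and differences are mean log2 in transgenic minus control mice, each with its standard error (SE) and 95% interval from limma.

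**Figure D1:**
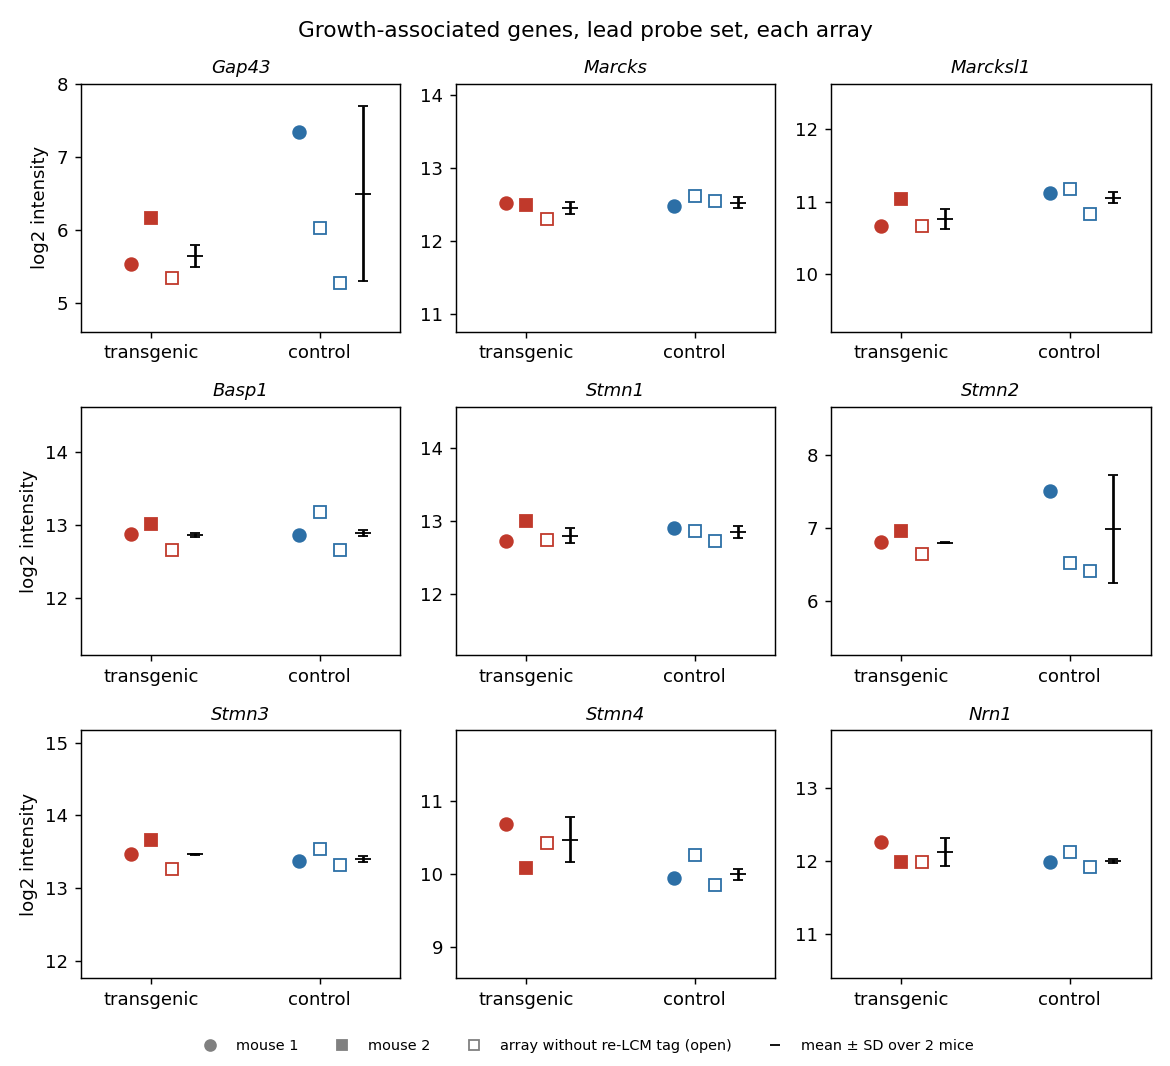
Log2 intensity of the lead probe set of each of the 9 genes, with the 3 transgenic arrays left of the 3 control arrays. Circles are mouse 1, squares mouse 2, open symbols arrays without the re-LCM tag, and bars the mean ± SD over 2 mice; every panel spans the same number of log2 units, and the array of control mouse 1 stands apart for Gap43 and Stmn2.

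The capture carried the defining RNAs of granule cells in both groups. Of 7 granule cell markers all passed the filter, and their summed intensity was 21373 to 22588 on the transgenic and 21427 to 24290 on the control arrays. Dsp, which encodes desmoplakin, read 7007, 7845 and 6366 on the transgenic arrays and 7009, 8376 and 9391 on the control arrays. Here and below, transgenic arrays are given in the order mouse 1, mouse 2 with the tag and mouse 2 without it, and control arrays in the order mouse 1, then mouse 2 as titled control 1 and control 2. Elavl4 itself read 79.4, 93.3 and 60.1 on the transgenic arrays, against 122, 92.8 and 63.7 on the control arrays. It was not higher in the transgenic mice (log2 difference -0.33, SE 0.27), and whether its probes match the transgene was not examined.

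Gap43, the growth cone protein and HuD target, was dim, with 1 probe set. Its intensity was 46.4, 71.8 and 40.7 on the transgenic arrays, against 163, 65.4 and 38.5 on the control arrays. The array of control mouse 1 was the highest, and the other 2 control arrays lay within or just below the range of the transgenic ones. On the log2 scale the mean was 5.65 ± 0.16 in transgenic and 6.50 ± 1.20 in control mice (SD, n = 2 mice each). The log2 difference was -0.85 (SE 0.57, 95% interval -2.35 to 0.64, or 0.197-fold to 1.56-fold) and did not pass in limma (adjusted p = 0.993). Without control mouse 1 it was -0.0035, and without control mouse 2 it was -1.70. Within the tagged arrays it was -1.50, and within the untagged ones -0.30. Among the controls only the array of mouse 1 is tagged, so tag and control mouse cannot be told apart.

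Markers of other cell types followed the Gap43 values only in part. Oligodendrocyte markers, 9 of which passed the filter and were all lower in the transgenic mice, had summed intensities of 5672 to 8303 on the transgenic arrays and 4891 to 12303 on the control arrays. The highest sum was that of control mouse 1, as for Gap43. Astrocyte markers behaved alike, with 7 of 7 lower, sums of 4007 to 4921 on the transgenic arrays and 4375 to 6682 on the control arrays, and the highest sum again on control mouse 1. The summed choroid plexus markers reached 17610 on the tagged array of transgenic mouse 2 and 12182 on that of control mouse 1, with 380 to 1239 on the other 4 arrays. Those are also the 2 arrays with the highest readings of Gap43 and of the Stmn2 lead. The sum is nearly all transthyretin, as Ttr read 741, 17436 and 1118 on the transgenic arrays and 11996, 178 and 319 on the control arrays. Other markers of this list did not all follow it: Kcnj13 was highest on the same 2 arrays, but Folr1 read 33.5, 18.7 and 29.8 on the transgenic arrays and 19.7, 35.6 and 18.2 on the control arrays. Markers of immature neurons, which also express Gap43 and Stmn2, were lower in 9 of 9 genes (median -0.36). Igfbpl1 passed the filter only through the control group (mean log2 4.31 in transgenic, 5.36 in control mice) and so had to be lower. The sums of this list were 3264 to 3857 on the transgenic arrays and 3706 to 4381 on the control arrays. The highest sum of all was on control mouse 1, as for Gap43. Among the transgenic arrays the highest sum was on the untagged array of mouse 2, where Gap43 was lowest among them. Over all genes tested, 5347 of 11138 were lower. Interneuron markers were lower in 7 of 9 tested genes (median -0.38). Of these, Sst passed the filter only through the control group and so had to be lower. The interneuron sums were 3425 to 3771 on the transgenic arrays and 2975 to 3622 on the control arrays. Pyramidal cell markers split into 2 higher and 3 lower, with Fibcd1 and Neurod6 passing only through the group where each is high. No marker of these lists was at the floor on all arrays. Their part in the Gap43 difference was not tested, and in bulk captures fewer cells of a type and less RNA per cell cannot be told apart.

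The genes whose levels ran most like Gap43 over the 6 arrays were Ppp1r14c, which encodes a protein phosphatase 1 inhibitor (Pearson r = 0.98), the mitochondrial ribosomal protein gene Mrps33 (0.98) and the AMPA receptor-associated gene Frrs1l (0.97). Of 11137 genes compared, 79 had an r over 0.9. The 6 arrays share mice and title tags, and in these 3 genes, as in Gap43, the array of control mouse 1 was the highest. Ppp1r14c, for example, read 167, 205 and 164 on the transgenic arrays and 266, 190 and 173 on the control arrays.

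Basp1, also known as CAP23, a functional relative of Gap43, was even across the groups. Its 1 probe set read 7514, 8250 and 6471 on the transgenic arrays, against 7425, 9256 and 6432 on the control arrays. The transgenic range lay inside the wider control range, and the means were 12.86 ± 0.03 in transgenic and 12.89 ± 0.04 in control mice (log2, SD, n = 2 mice each). The log2 difference of -0.03 (SE 0.16) had an interval of 0.73-fold to 1.31-fold (limma, adjusted p = 0.999).

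Marcks, the actin- and phospholipid-binding kinase C substrate, had 7 probe sets, 2 higher and 5 lower in the transgenic mice. The lead read 5861, 5758 and 5069 on the transgenic arrays, against 5696, 6270 and 5994 on the control arrays, a log2 difference of -0.07 (SE 0.17, interval 0.703-fold to 1.29-fold). Its groups overlapped. Of the other 6 probe sets, 2 separated the groups, and they did so in opposite directions. The probe set 1415972_at read 414, 428 and 430 on the transgenic arrays, against 360, 335 and 368 on the control arrays (log2 difference 0.24, SE 0.16). The dimmest, 1430311_at, read 6.42, 37.8 and 35.2 on the transgenic arrays, against 43.6, 58.1 and 50.5 on the control arrays. There the log2 difference of -1.34 (SE 0.63) is set in part by the floor, an intensity of 10.1 under which transgenic mouse 1 lay. Its mean log2 intensity, 4.26 in transgenic and 5.60 in control mice, was above the filter of 4.92 in the control mice only. The remaining 4 Marcks probe sets gave -0.28 to 0.06 with overlap. Averaged over its 7 probe sets, Marcks gave -0.25. That mean and the count of 5 lower include 1430311_at, which passed the filter only through the control mice and so had to be lower.

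Marcksl1, the smaller relative of Marcks, had 4 probe sets, 1 higher and 3 lower. Its lead read 1620, 2108 and 1622 on the transgenic arrays, against 2214, 2308 and 1812 on the control arrays. The means were 10.76 ± 0.13 in transgenic and 11.06 ± 0.08 in control mice (log2, SD, n = 2 mice each), and the tagged array of transgenic mouse 2 lay within the control range. The log2 difference was -0.30 (SE 0.18, interval 0.592-fold to 1.12-fold; limma, adjusted p = 0.993). Over leave-outs it stayed between -0.39 and -0.20, and as the mean of the 4 probe sets it was -0.72, with the dim probe set described next included. Microglia, which express Marcks and Marcksl1 as well, had 8 of 8 tested markers lower in the transgenic mice, against 5347 of 11138 over all genes. C1qc passed the filter only through the control group (mean log2 4.83 in transgenic, 5.43 in control mice) and so had to be lower. Sums over the list were 3117 to 3820 on the transgenic and 3316 to 4636 on the control arrays. Itgam was the 1 microglia marker at the floor on all arrays. The part of these cells in the Marcksl1 difference was not tested.

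A dim Marcksl1 probe set had the largest difference of all 21. The probe set 1435415_x_at read 15.3, 138 and 40.8 on the transgenic arrays, against 208, 130 and 209 on the control arrays. Its log2 difference was -2.45 (SE 0.76, interval -4.43 to -0.47), the single case of an unadjusted p under 0.05 among the 21 (limma, adjusted p = 0.993). The groups overlapped, and the 2 arrays of transgenic mouse 2 differed 3.38-fold from each other. The other 2 Marcksl1 probe sets gave 0.07 and -0.19.

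**Figure D2:**
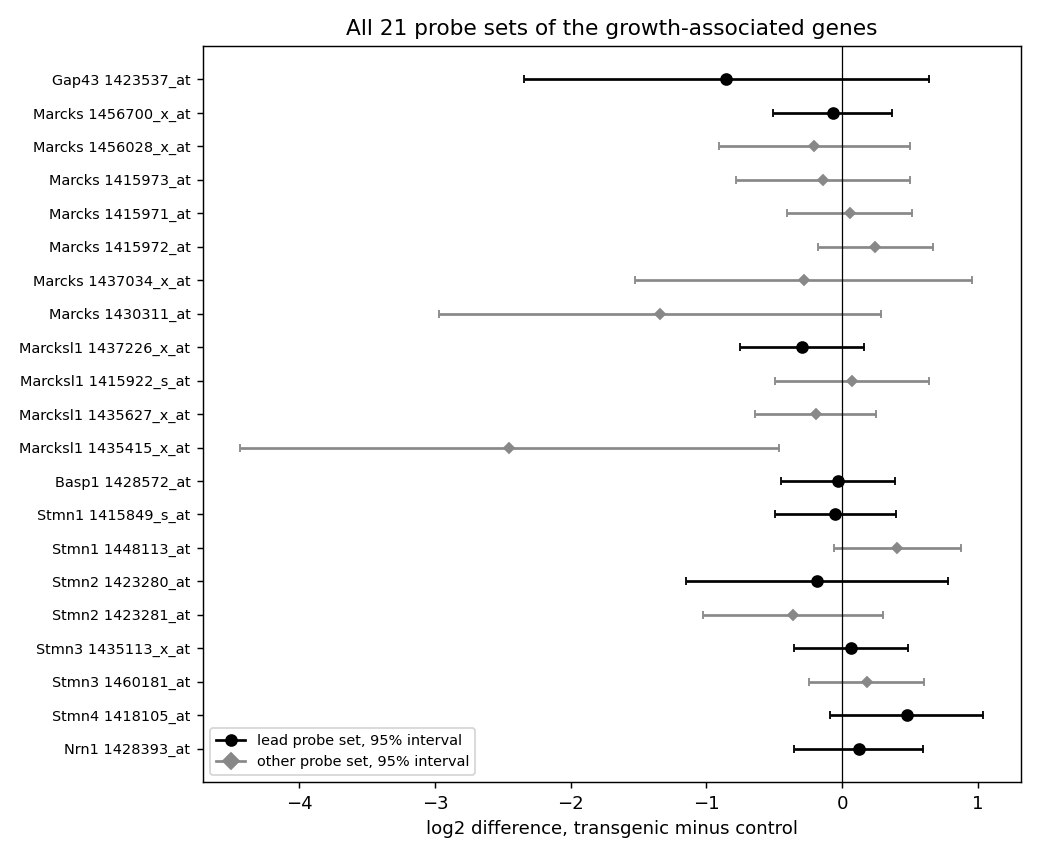
Log2 difference between transgenic and control mice with its 95% interval for each of the 21 probe sets, lead probe sets in black and the others in grey. All intervals but that of Marcksl1 1435415_x_at, from -4.43 to -0.47, include 0.

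The letters at the end of a probe set's name describe how specific its probes are. In this array family _at marks probes of a single transcript, _s_at probes shared by several transcripts, and _x_at some probes that also resemble other sequences. Of the 21 probe sets 12 end in _at, 2 in _s_at and 7 in _x_at, and the leads of Stmn1 (_s_at) and of Marcks, Marcksl1 and Stmn3 (_x_at) are of the less specific kinds. Readings from them may hold signal of other transcripts. With the brightest _at probe set in place of the lead, a comparison added after the values were seen, the log2 difference was -0.14 for Marcks, 0.18 for Stmn3 and 0.40 for Stmn1.

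Stmn1, the ubiquitous stathmin that is abundant in dividing and young cells, gave opposite signs in its 2 probe sets. The lead read 6760, 8177 and 6814 on the transgenic arrays, against 7656, 7414 and 6768 on the control arrays, with overlap and a log2 difference of -0.05 (SE 0.17). The dimmer 1448113_at read 200, 193 and 159 on the transgenic arrays, against 150, 130 and 139 on the control arrays. There every transgenic array was above every control array, with a log2 difference of 0.40 (SE 0.18, interval -0.06 to 0.87; limma, adjusted p = 0.993). Over the 6 arrays the 2 probe sets hardly ran together (r = 0.12).

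Stmn2, also known as SCG10, the neuron-specific stathmin of growth cones, was dim in both probe sets. The lead read 112, 124 and 100 on the transgenic arrays, against 182, 92.2 and 85.3 on the control arrays. All transgenic arrays lay between control mouse 1 and control mouse 2, so the sign depended on the mouse: -0.19 (SE 0.37) with all mice, 0.33 without control mouse 1 and -0.71 without control mouse 2. The second probe set read 64.9, 114 and 60.8 on the transgenic arrays, against 113, 101 and 62.1 on the control arrays (log2 difference -0.36, SE 0.26). Its groups overlapped too. Genes that ran most like the lead were 4933402C06Rik (r = 0.99), the phosphoinositide 3-kinase subunit gene Pik3cb (0.98) and the carbonic anhydrase gene Car2 (0.98), with 72 genes over 0.9. Car2, which oligodendrocytes express, read 84, 92.3 and 72.9 on the transgenic arrays and 147, 52.7 and 54 on the control arrays.

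Stmn3, also known as SCLIP, was the gene whose probe sets ran together most closely (r = 0.96 over 6 arrays). The lead read 11394, 13006 and 9844 on the transgenic arrays, against 10648, 11935 and 10246 on the control arrays. The second read 1189, 1504 and 1008 on the transgenic arrays, against 1040, 1303 and 924 on the control arrays. In both, the array of transgenic mouse 2 with the tag was the highest, and the groups overlapped. The log2 differences were 0.07 (SE 0.16, interval 0.782-fold to 1.4-fold) and 0.18 (SE 0.16).

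Stmn4, also known as RB3, had the largest difference towards higher values of the 21 probe sets. Its probe set read 1651, 1076 and 1377 on the transgenic arrays, against 982, 1219 and 918 on the control arrays. The tagged array of transgenic mouse 2 lay inside the control range and the other 2 transgenic arrays above it. The means were 10.47 ± 0.31 in transgenic and 9.99 ± 0.08 in control mice (log2, SD, n = 2 mice each). The log2 difference of 0.48 (SE 0.22, interval 0.941-fold to 2.06-fold) did not pass in limma (adjusted p = 0.993), and without transgenic mouse 1 it was 0.26.

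Nrn1, the neuritin gene, was bright and even. It read 4885, 4058 and 4052 on the transgenic arrays, against 4041, 4434 and 3872 on the control arrays. Only the array of transgenic mouse 1 lay outside the control range, and without that mouse the log2 difference of 0.12 (SE 0.18, interval 0.782-fold to 1.51-fold) was -0.01.

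In all, 3 of the 21 probe sets had no overlap between the 3 transgenic and the 3 control arrays: Stmn1 1448113_at and Marcks 1415972_at towards higher values and Marcks 1430311_at towards lower ones. The last entered the test only through the group where it is high and so had to differ, which makes the count a description. Over all tested probe sets the share was 8.15%, of which 3.83% higher and 4.32% lower. None of the 9 lead probe sets separated the groups, against 8.04% of all genes by their lead probe set.

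**Figure D3:**
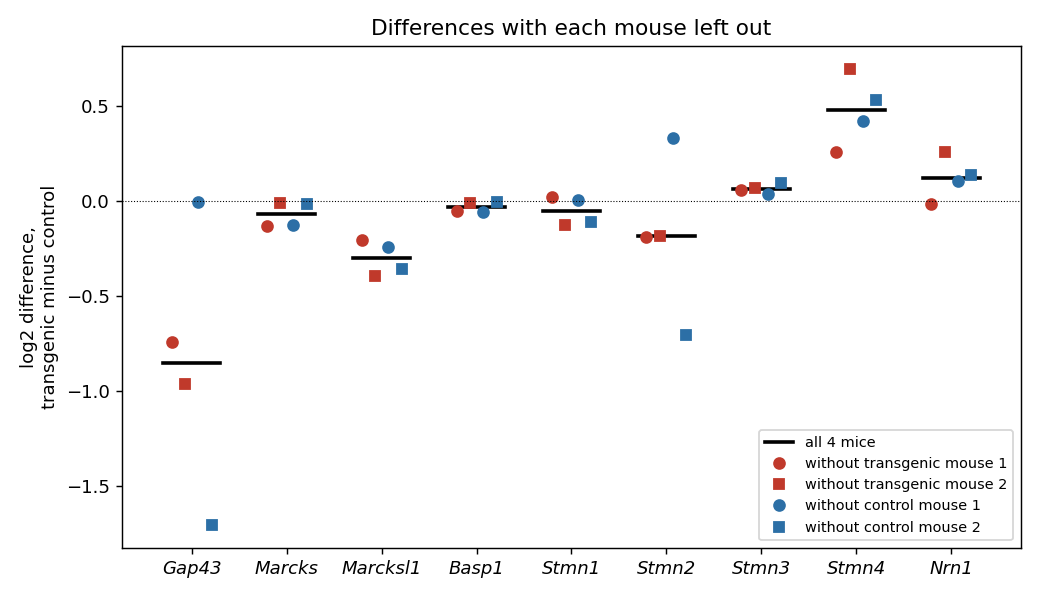
Log2 difference of each gene's lead probe set with all 4 mice (black line) and with each mouse left out (red circle and square, transgenic mouse 1 and 2; blue circle and square, control mouse 1 and 2). Gap43 runs from -1.70 to -0.0035 and Stmn2 from -0.71 to 0.33, while Marcksl1 stays below 0 and Stmn4 above it.

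The 2 arrays described as from mouse 2 were compared within each group. These pairs are not plain repeats. Those of transgenic mouse 2 differ in the re-LCM tag, and those of control mouse 2 may be from separate mice. On the tagged array of transgenic mouse 2, 8 of the 9 lead probe sets read higher than on its untagged array, all but Stmn4, against 51.6% of all genes. On the array of control mouse 2 titled control 1, 9 of 9 read higher than on that titled control 2, against 52.1% of all genes. The median gap over the 9 was 0.31 and 0.22 log2 units in these mice, and over all genes 0.02 in each. Regardless of sign, the median gap over the 9 was 0.35 and 0.22, against 0.28 and 0.26 over all genes. Over all 21 probe sets, 18 and 15 read higher on the same arrays, with median gaps of 0.31 and 0.13. Gap43 differed 1.76-fold between the arrays of transgenic mouse 2 and 1.70-fold between those of control mouse 2, and Basp1 1.27-fold and 1.44-fold. For 7 of the 9 genes at least 1 of these gaps was larger than the difference between the groups, and the same held for 84.8% of all genes. The exceptions were Gap43 and Stmn4. The ratio of 3' to 5' Actb control probe sets was 19.4 on the tagged and 27.8 on the untagged array of transgenic mouse 2, and 22.7 and 24.2 on the arrays of control mouse 2 titled control 1 and control 2. The same ratio for Gapdh was 6.46 on the tagged and 8.63 on the untagged array of transgenic mouse 2, but ran the other way in control mouse 2, with 8.40 on control 1 and 7.87 on control 2. On the tagged arrays of transgenic and control mouse 1 the ratios were 14.8 and 17.4 for Actb and 7.06 and 6.92 for Gapdh. Both ratios were thus lower on every tagged array than on every untagged one. The tag is more frequent among the transgenic arrays. The part of these ratios in the gaps or in the group differences was not tested.

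**Figure D4:**
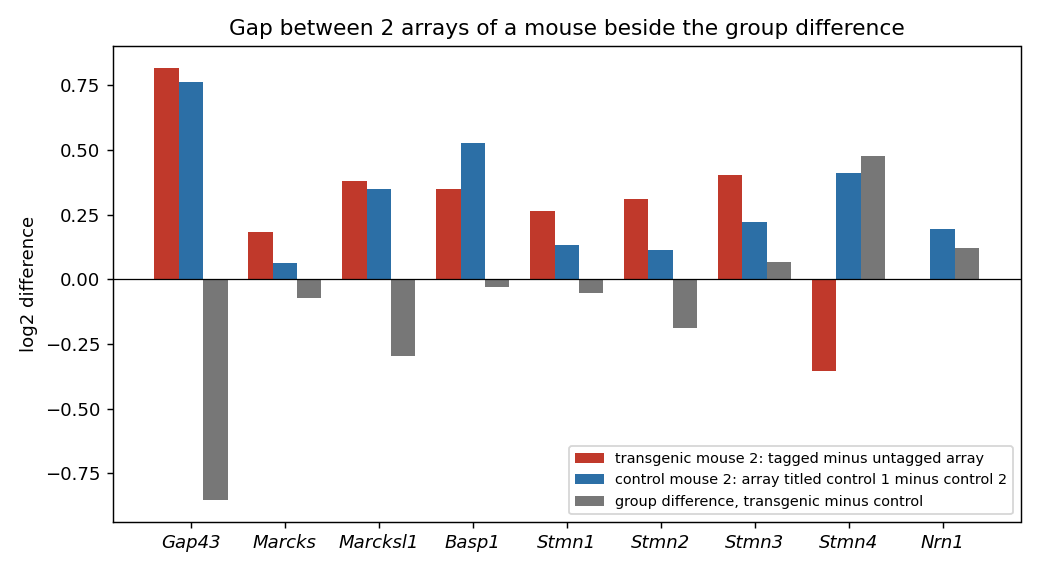
Log2 gap between the 2 arrays of transgenic mouse 2 (red), between the 2 arrays of control mouse 2 (blue) and between transgenic and control mice (grey) for each lead probe set. The gaps of the mice are above 0 for every gene except Stmn4 in transgenic mouse 2, where it is -0.36, and the group differences fall on both sides of 0.

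Genes that work with the growth-associated proteins were given by list, each gene by its brightest tested probe set. None of the 102 genes on these lists passed in limma (adjusted p of 0.993 or more). Among calmodulin-binding partners, calcineurin subunits, phosphoinositide kinases, adducins and palmitoyl transferases, 12 of 16 listed genes were tested, no calmodulin gene among them, 7 higher and 5 lower (median log2 difference 0.01). Zdhhc17, a palmitoyl transferase of neurons, read 503, 456 and 470 on the transgenic arrays, against 409, 420 and 434 on the control arrays (log2 difference 0.21, SE 0.17), without overlap. A relative, Zdhhc3, gave -0.19 (SE 0.18), and the phosphoinositide kinase gene Pip5k1a gave 0.09 (SE 0.16).

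Kinases and phosphatases that act on stathmins split into 8 higher and 6 lower of 14 tested (median 0.02). Camk2b, a subunit of CaM kinase II, had a log2 difference of 0.39 (SE 0.26), but 0.09 without transgenic mouse 1. Cdk5, a neuronal cyclin-dependent kinase, gave 0.31 (SE 0.22), but 0.10 without that mouse. Rac1, the GTPase upstream of stathmin phosphorylation, gave -0.23 (SE 0.22), and -0.0012 without control mouse 1.

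Microtubule proteins of the growth cone were higher in 12 and lower in 9 of 21 tested genes (median 0.04). Map1b, a large microtubule-associated protein of growing axons, read 849, 573 and 622 on the transgenic arrays, against 410, 381 and 485 on the control arrays, without overlap. Its log2 difference was 0.76 (SE 0.23; limma, adjusted p = 0.993), 0.51 without transgenic mouse 1 and 0.36 as the mean of its probe sets. Mapre3, which encodes the microtubule end-binding protein EB3, read 58.4, 84.3 and 42 on the transgenic arrays, against 164, 134 and 58.5 on the control arrays. The groups overlapped, with a log2 difference of -1.03 (SE 0.33; limma, adjusted p = 0.993) and -0.59 without control mouse 1. Dcx, the doublecortin gene of young neurons, gave -0.36 (SE 0.24), and -0.12 without transgenic mouse 1.

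Actin proteins of the growth cone were higher in 17 and lower in 7 of 24 tested genes (median 0.05). Gsn, which encodes the actin-severing protein gelsolin and is abundant in oligodendrocytes, had a log2 difference of -0.76 (SE 0.47), but -0.17 without control mouse 1. The thymosin gene Tmsb10 gave -0.45 (SE 0.28) and -0.13 without transgenic mouse 1. Towards higher values, Cap1 gave 0.66 (SE 0.65) and Pfn1, the profilin 1 gene, 0.44 (SE 0.32). Cap1 turned to -0.24 without transgenic mouse 1, and Pfn1 to -0.07 without the array titled control 1.

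Membrane and adhesion proteins were higher in 7 and lower in 11 of 18 tested genes (median -0.08). Plppr4, a phospholipid phosphatase-related protein of neurons, read 4645, 5618 and 4923 on the transgenic arrays, against 6088, 6641 and 6211 on the control arrays. These groups did not overlap, and the log2 difference of -0.34 (SE 0.17) lay between -0.43 and -0.25 over leave-outs. Its relative Plppr1 gave 0.23 (SE 0.17) at its brightest probe set but -0.25 as the mean of its probe sets. The surface protein gene Cd24a gave -0.54 (SE 0.34), and -0.09 without transgenic mouse 1.

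Of transcription and secreted factors that accompany axon regeneration, 13 of 18 listed were tested, 7 higher and 6 lower (median 0.05). Atf3, an injury-induced transcription factor, had a mean log2 intensity of 6.28 ± 0.05 in transgenic and 5.20 ± 0.11 in control mice (SD, n = 2 each), without overlap. The log2 difference was 1.07 (SE 0.17; limma, adjusted p = 0.993). Sox11, a transcription factor of young neurons, had means of 10.11 ± 0.06 and 10.37 ± 0.09 in transgenic and control mice, also without overlap (difference -0.26, SE 0.17). The cytokine signalling inhibitor gene Socs3 gave 1.30 (SE 0.92), but read 15.1 on control mouse 1 against 72.2 to 150 on the other arrays and gave -0.09 without that mouse. Klf4 gave -0.67 (SE 0.33), and -0.34 without transgenic mouse 1.

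**Figure D5:**
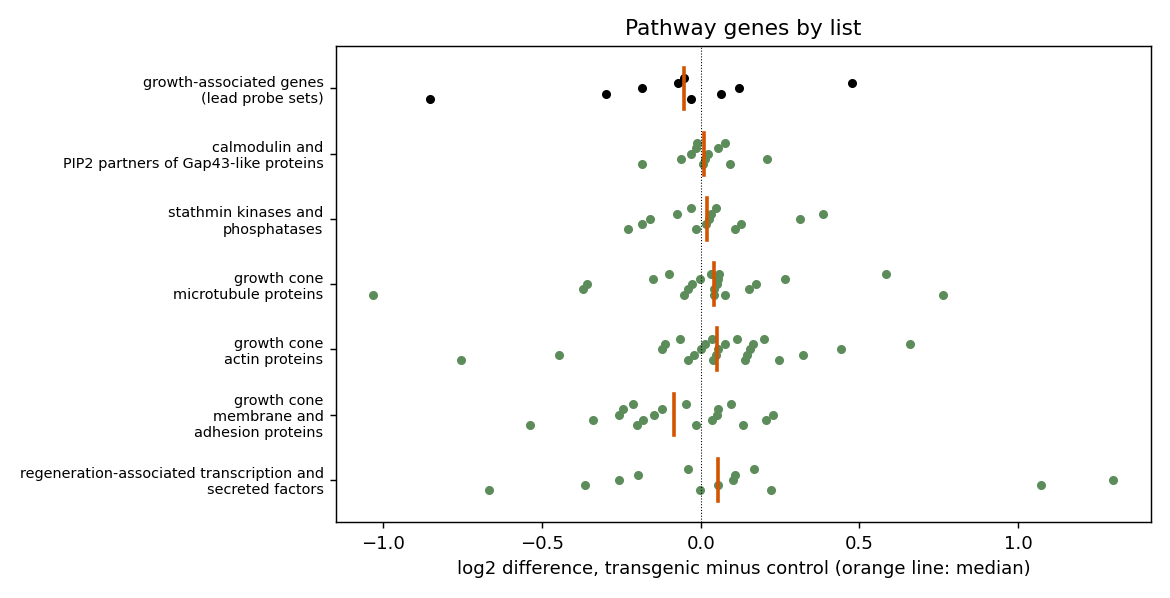
Log2 differences between transgenic and control mice for the lead probe sets of the 9 growth-associated genes (black) and for the tested genes of the 6 lists (green), with the median of each as an orange line. All medians lie between -0.08 and 0.05, and single genes such as Socs3 at 1.30 and Mapre3 at -1.03 lie far from them.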

How the data were processed

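RNA was measured on 6 arrays, deposited as linear intensity values per probe set. The scaling by the authors shows in the values: the 2% trimmed mean was 150.001 on each array. How the authors combined probes and corrected background is not given in the sources used. Of 45101 probe sets, 64 array controls were left out. Genes were named from the platform annotation, where 34945 probe sets had 1 symbol, 932 several and 9160 none. Entrez identifiers matched 34741 of them to RefSeq, which changed 0 symbols.

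Values under the pooled 25th percentile (10.1) were set to it and log2 was taken. Probe sets with a mean above the median (log2 4.92) were tested, which left 22518 probe sets and 11138 named genes. Arrays of a mouse were averaged. The 2 transgenic mice were set against the 2 controls in limma 3.58.1 (lmFit, eBayes; R 4.3.3), and p-values were adjusted by Benjamini-Hochberg over all probe sets tested. The fit had 2 residual and 2.83 prior degrees of freedom and was tested on simulated data. The number of mice and arrays limits the precision. Named list genes are, for each list, the 3 of smallest p and the largest difference either way. Like genes are the 3 of highest Pearson r with a gene that spans at least 1 log2 unit. The genes, lists and rules were chosen with earlier results of these data known. Same-numbered mice did not deviate together (r = 0.02 across probe sets).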

Additional observations from a re-analysis of the deposited data

How the results depend on the processing

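No lead probe set passed the threshold under any of the alternatives tried, and no probe set did over the whole table, except 2 (of Edil3 and E2f5) with a variance trend and robust variance. The number of probe sets at an unadjusted p under 0.05, 995, was 2923 with no filter, 644 with probe sets of a gene averaged, 632 with 1 probe set per gene and 2679 where the mouse was a random block, and ran from 790 to 1667 over mice left out. The mouse number as a replicate block gave 1085, with 0 past the threshold, and changed no call. For the random block, the estimated correlation between arrays of a mouse was -0.53, so they counted as less alike than arrays of different mice. The 2679 rests on this estimate, and 6 arrays as separate samples gave 876. Between arrays, r was 0.956 within transgenic mouse 2 and 0.953 within control mouse 2. Across these mice it was 0.953 for the tagged array with control 1 and 0.968 for the untagged array with control 2. Gap43, Marcksl1 and Stmn4 kept their sign in every alternative run, with Gap43 at -0.53 for 6 arrays as separate samples and -0.26 for the random block. Signs turned for Stmn1 to 0.18 with probe sets averaged, 0.027 with the random block, 0.014 without the untagged array of transgenic mouse 2 and 0.40 by its _at probe set. They turned for Basp1 to 0.10 without the array titled control 1 and 0.057 without the untagged array of transgenic mouse 2, for Stmn2 to 0.13 with the random block, and for Stmn3 to -0.035 without the tagged array of transgenic mouse 2. Within the tagged arrays Marcks gave 0.028, Basp1 0.085 and Stmn3 0.19. Within the untagged ones Marcks gave -0.27, Basp1 -0.25, Stmn2 0.17, Stmn3 -0.17 and Nrn1 -0.032. Among the controls the tag cannot be told apart from the mouse. Over mice left out, Stmn1 ran from -0.12 to 0.019, Stmn2 from -0.71 to 0.33 and Nrn1 from -0.013 to 0.26. Among list genes, signs turned within the untagged arrays for Camk2b (-0.076), Cdk5 (-0.31), Cd24a (0.050) and Socs3 (-0.072), for Plppr1 with probe sets averaged (-0.25), and over leave-outs for Pfn1 (-0.071), Cap1 (-0.24 to 1.56) and Socs3 (-0.092 to 2.69). Averaging or choosing 1 probe set per gene leaves fewer items to count; other causes were not tested. With a mouse left out, the lone mouse of a group is assumed to vary like the others.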
